A study of Mus musculus with 31 samples.

Results

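The hippocampus was compared between 4 mice that had received rAAV-OVA and 4 that had received rAAV-control, all killed 5 days after the injection. These 8 of the 31 mice of the study were chosen by their labels alone, the time point and the vector, and no measured value entered the choice. The study models a limbic encephalitis driven by CD8 T cells and took the left hippocampus at 2, 5, 8 and 28 days for bulk RNA-seq, with a library for each mouse. Every mouse, the controls included, was an adult OT-I/Rag-/- animal, which has no B cells and whose T cells carry a receptor for an ovalbumin (OVA) peptide presented by MHC class I. The rAAV-OVA group had rAAV-hSyn-OVA-mCherry injected into the CA1 region of both dorsal hippocampi, so that the neuronal hSyn promoter drove OVA and the fluorescent protein mCherry. The rAAV-control group had rAAV-hSyn-mCherry, so both groups carried the OVA-specific T cells and a vector in their neurons, and the presence of OVA was the difference. All 8 mice belonged to batch 1. Markers of the labelled tissue were present in every library, with Slc17a7, the glutamate transporter of excitatory neurons, at 1087 to 1957 CPM and Prox1, the transcription factor of dentate granule neurons, at 80.1 to 171 CPM.

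The hippocampus is built of pyramidal neurons of CA1 to CA3, granule neurons of the dentate gyrus and a smaller number of interneurons, with astrocytes that clear glutamate and potassium, oligodendrocytes that make myelin, and microglia. Neurons hold little MHC class I at rest. Cytotoxic CD8 T cells kill cells that present their peptide on MHC class I, and the interferon-gamma they release raises antigen presentation, chemokines and interferon-induced GTPases in the cells around them. In bulk tissue, fewer cells of a type and less RNA per cell of that type lower a transcript alike, and these data cannot tell them apart.

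The 8 libraries held between 24767580 and 57407902 assigned counts over 15648 genes. Expression is given as CPM, counts per 1e+06 counts of the library after TMM scaling, and the 4 values of a group always follow the order of mouse 1 to mouse 4. Log2FC is the log2 fold change of rAAV-OVA against rAAV-control from edgeR's quasi-likelihood test, given with its standard error, and FDR its p-value after Benjamini-Hochberg adjustment over all genes. The model also held 2 surrogate variables, estimates of library-to-library variation that the group terms do not hold, which were not balanced between the groups of 5 days, so a Log2FC can differ from the ratio of the CPM values printed beside it. Genes were called DEGs when the FDR was 0.05 or lower and the Log2FC reached 0.66 in either direction. At 5 days 1507 genes were increased (9.63% of those tested) and 739 decreased (4.72%), with a median Log2FC of 1.56 and -0.90, while the median over all genes was -0.01. Increased genes were 67.1% of the DEGs. With libraries scaled to their total counts in place of TMM, the median of all genes moved to 0.12 and the split to 1850 increased and 430 decreased genes, 81.1% of them increased. Every rAAV-OVA mouse lay below every rAAV-control mouse in 19.6% of all genes and above in 21%, and this held for 626 of the 739 decreased and 1440 of the 1507 increased genes. Rag1, the gene the mice lack as a functional copy, had 6.04, 7.198, 4.6 and 4.65 CPM in the rAAV-control mice and 5.62, 6.72, 7.63 and 6.405 CPM in the rAAV-OVA mice (Log2FC 0.22 ± 0.17, FDR 0.361), and counts of whole genes do not show which part of it was deleted.

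The rAAV-control mice 2 and 3 stood apart from the others in genes of choroid plexus and of blood. Ttr, the transthyretin gene of the choroid plexus, had 98.1, 3515, 80.95 and 19.4 CPM in the rAAV-control mice and 21.7, 32.2, 24.5 and 95.8 CPM in the rAAV-OVA mice. The summed level of the 16 listed choroid plexus and ependymal genes was 395, 5824, 337 and 286 CPM in the rAAV-control mice and 265, 252, 238 and 433 CPM in the rAAV-OVA mice, so mouse 2 of the control group alone was high. Of these 16 genes 9 were called decreased, led by the potassium channel gene Kcne2 (Log2FC -5.45 ± 1.64, FDR 0.015), and 0 were called without that mouse, by edgeR's quasi-likelihood test. The same mouse had the highest control level of the interferon-induced GTPase genes. Red blood cell genes summed to 321, 346, 903 and 372 CPM in the rAAV-control mice and 120.4, 332, 193 and 263 CPM in the rAAV-OVA mice, with mouse 3 of the control group highest, and 4 of 5 were called decreased, 0 without that mouse and 0 without rAAV-OVA mouse 1. Hba-a1 and Hba-a2, which encode the same alpha globin, share reads and are uncertain singly. Without rAAV-control mouse 2 or without mouse 3, the neuronal genes called decreased numbered 35 and 43 against 38 with all mice, and the glial genes 32 and 29 against 28. Without rAAV-control mouse 2 the whole comparison gave 1306 increased and 612 decreased genes, of which 560 were among the 739.

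**Figure D1:**
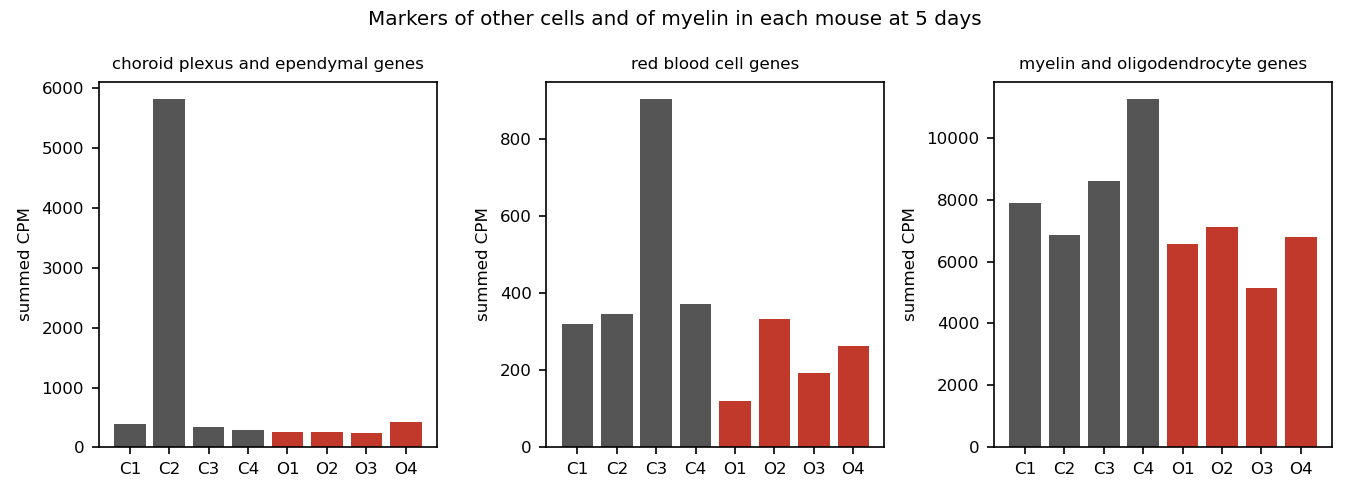
Summed CPM of 3 gene lists in each mouse at 5 days, with rAAV-control mice 1 to 4 as C1 to C4 in grey and rAAV-OVA mice 1 to 4 as O1 to O4 in red. C2 carries the choroid plexus signal, C3 has the most haemoglobin and C4 the most myelin.

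Most neuronal genes had a Log2FC below 0, and few passed both limits. Over 329 neuronal genes in 12 lists, 38 decreased and 9 increased, the median Log2FC was -0.30, and 257 lay below 0, against 8025 of all 15648 genes. The share of decreased genes was 11.6%, against the 4.72% of all genes, and the share with every rAAV-OVA mouse below every control was 52.0%, against 19.6%. Without the limit on Log2FC, 97 of the 329 passed the FDR as lower, which 14.1% of all genes did. The plot of the listed genes shows each list as a row of points on the Log2FC axis.

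**Figure D2:**
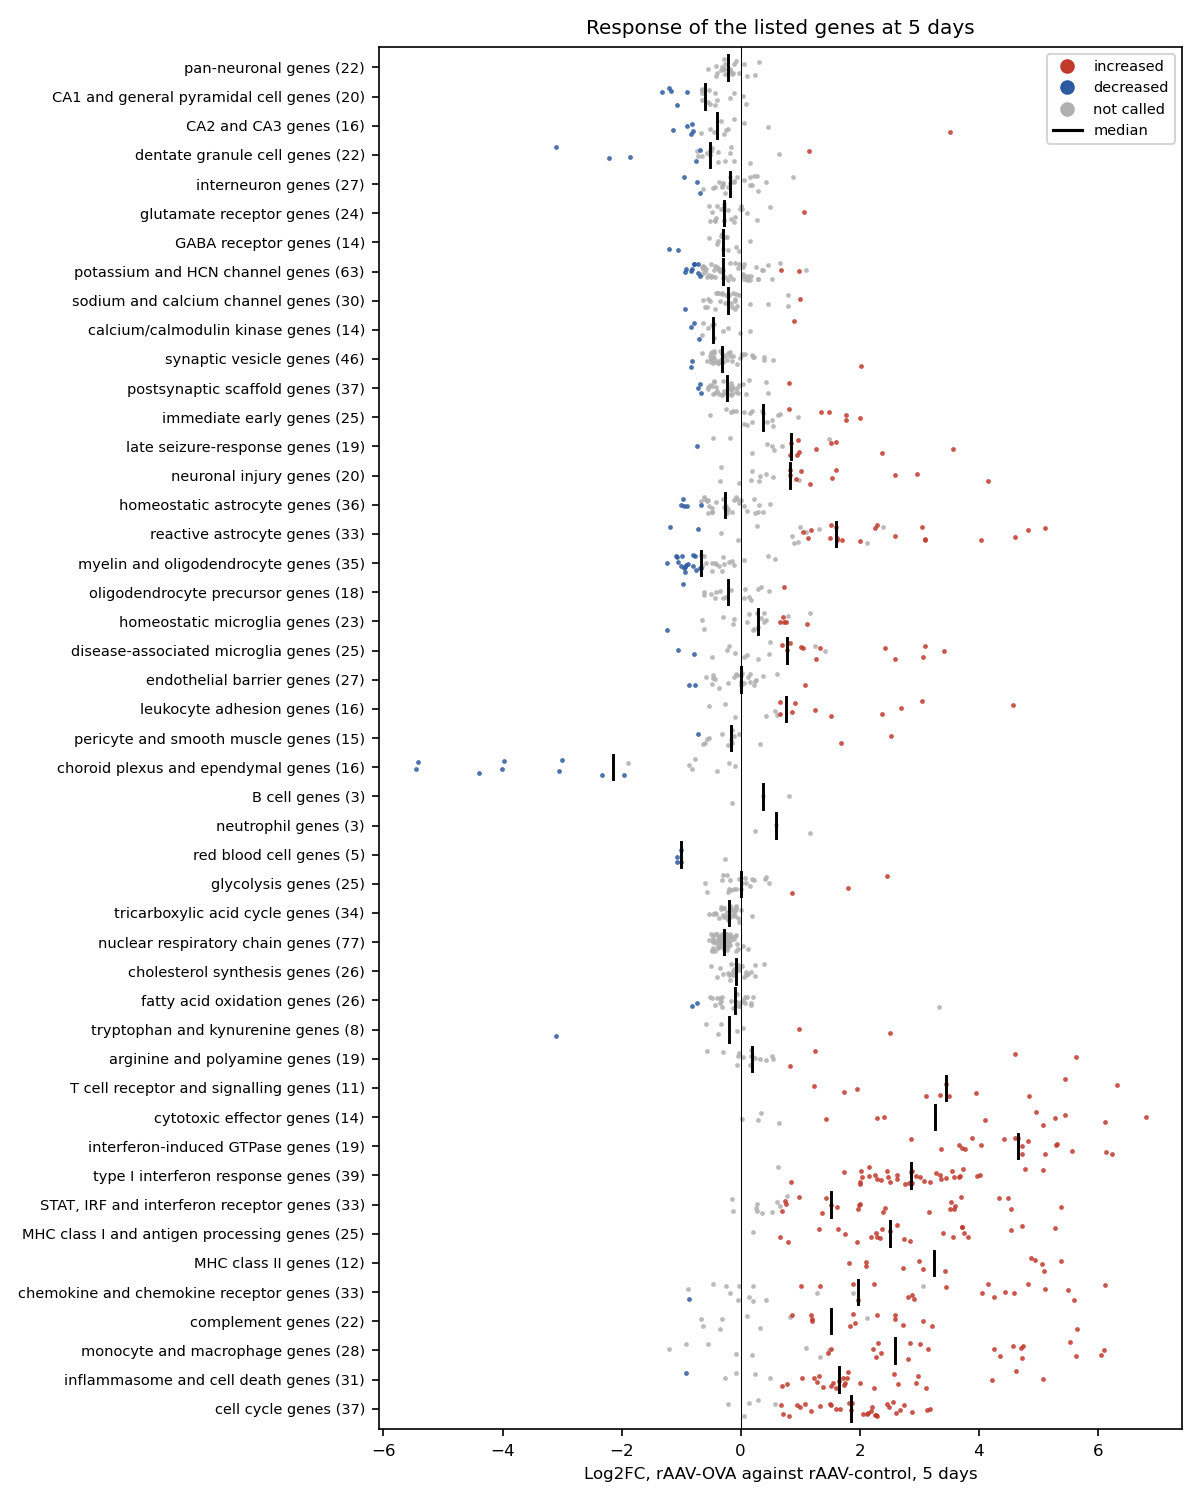
Log2FC of rAAV-OVA against rAAV-control at 5 days for each listed gene (points), with each list a row on the vertical axis, with the number of measured genes in parentheses; red points are increased, blue decreased and grey not called, and the black bar is the median of the list. Neuronal lists lie a little below 0 with a few strong decreases, the myelin list lies further below with a median of -0.66, respiratory chain genes form a narrow cluster at -0.28, and the immune lists lie far to the right.

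Of 22 genes that most neurons use alike, edgeR called 0, with a median Log2FC of -0.22. At an unadjusted p under 0.05, 8 of them were lower, as were 20.2% of all genes, and DESeq2 and limma voom also called 0. Their summed level was 12742, 11116, 10828 and 10794 CPM in the rAAV-control mice and 8223, 9079.8, 8929.9 and 9269.7 CPM in the rAAV-OVA mice, so the groups did not overlap. Map2, a dendritic microtubule protein, had 1573, 1436, 1152 and 1257 CPM in the rAAV-control mice and 1339, 1361, 1290.4 and 1389 CPM in the rAAV-OVA mice (Log2FC 0.11 ± 0.18, FDR 0.661), and the groups overlapped.

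Of 20 genes of CA1 and general pyramidal neurons 5 decreased (25%, against 4.72% of all genes) and 0 increased, with a median Log2FC of -0.59. In 12 (60%, against 19.6% of all genes) every rAAV-OVA mouse lay below every control. Fibcd1, a transmembrane acetyl-group receptor enriched in CA1, had 199.6, 178, 144 and 151 CPM in the rAAV-control mice and 55.5, 106, 78.4 and 73.9 CPM in the rAAV-OVA mice (Log2FC -1.31 ± 0.31, FDR 0.00275). All 4 rAAV-OVA mice lay below the controls, the first furthest. Neurod6, a transcription factor of pyramidal neurons, had 258, 208, 182 and 171 CPM in the rAAV-control mice and 108, 121, 113 and 151 CPM in the rAAV-OVA mice (Log2FC -1.08 ± 0.38, FDR 0.037), and lost its call under 10 of 19 alternatives. The other calls were the protease inhibitor gene Spink8 (Log2FC -1.2), the transcription factor gene Neurod1 (-1.17) and the copine gene Cpne6 (-0.9), and Spink8 and Cpne6 lost their calls under 4 and 5 alternatives. Of 16 CA2 and CA3 genes 5 decreased (31.25%, against 4.72% of all genes), with a median of -0.39. They were the neurotrophin gene Ntf3 (-1.14), Cpne4 (-0.91), Prss35 (-0.83), Iyd (-0.82) and Rgs14 (-0.8), a regulator of G protein signalling found in CA2. In 4 of the 16 genes (25%) every rAAV-OVA mouse lay below every control, near the 19.6% of all genes. Prss35 lost its call under 14 of 19 alternatives and Iyd under 7, and the list had 2 decreases without rAAV-OVA mouse 1, 3 without rAAV-OVA mouse 3 and 1 in a fit of the 23 mice of batch 1. Csf2rb2, a cytokine receptor chain that is also used by myeloid cells, went the other way with 1.03, 2.38, 2.08 and 3.43 CPM in the rAAV-control mice and 52.1, 42.7, 57.05 and 32.1 CPM in the rAAV-OVA mice (Log2FC 3.51 ± 0.61, FDR 0.000204).

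The largest decreases of the neuronal lists were markers of dentate granule neurons. Of 22 listed genes 5 decreased (22.7%, against 4.72% of all genes) and 1 increased (4.55%, against 9.63%), and the median Log2FC was -0.51. Tdo2, which encodes tryptophan 2,3-dioxygenase, the first enzyme of the kynurenine route, had 7.16, 5.77, 5.71 and 4.41 CPM in the rAAV-control mice and 0.155, 1.73, 0.498 and 0.742 CPM in the rAAV-OVA mice (Log2FC -3.1 ± 0.47, FDR 5.97e-05), and rAAV-OVA mouse 1 was near 0. Plk5, a polo-like kinase family member that neurons express, had 14.4, 20.8, 19.3 and 15.3 CPM in the rAAV-control mice and 3.22, 4.07, 2.95 and 3.67 CPM in the rAAV-OVA mice (Log2FC -2.21 ± 0.32, FDR 3.94e-05). For Lct, the lactase gene and a granule cell marker, the values were 93.6, 86.4, 52.05 and 56.8 CPM in the rAAV-control mice and 18.03, 33.1, 22.2 and 21.4 CPM in the rAAV-OVA mice (Log2FC -1.85 ± 0.35, FDR 0.00047). In these 3 genes no rAAV-OVA mouse reached the lowest control. Pdzd2, a PDZ domain gene, increased with overlapping groups, at 37.9, 55.4, 36.9 and 43.9 CPM in the rAAV-control mice and 174, 46.3, 65.5 and 61.6 CPM in the rAAV-OVA mice (Log2FC 1.15 ± 0.40, FDR 0.0345), where rAAV-OVA mouse 1 was far above the rest and without it the gene was not called.

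Genes of inhibitory signalling decreased in 3 of 27 cases among interneuron genes (11.1%) and in 2 of 14 among GABA receptor genes (14.3%), against 4.72% of all genes. Pvalb, the calcium-binding parvalbumin of fast-spiking interneurons, had 32.04, 31.9, 42.1 and 34.6 CPM in the rAAV-control mice and 14.9, 19.5, 16.4 and 15.4 CPM in the rAAV-OVA mice (Log2FC -0.96 ± 0.21, FDR 0.00126). Its rAAV-OVA values lay close together and far below the controls. The other interneuron genes called were the neuropeptide gene Cck (-0.74) and Adarb2 (-0.68), which lost their calls under 7 and 8 of 19 alternatives, and the median of the list was -0.18. The 2 GABA receptor genes encode subunits of extrasynaptic receptors, which carry tonic inhibition. Gabra5, the alpha 5 subunit of pyramidal neurons, had 275, 239, 211 and 171 CPM in the rAAV-control mice and 89.6, 135, 101 and 115 CPM in the rAAV-OVA mice (Log2FC -1.21 ± 0.22, FDR 0.000304). Gabrd, the delta subunit of granule neurons, had 25.7, 24.5, 32.6 and 24.96 CPM in the rAAV-control mice and 7.17, 10.4, 12.7 and 9.81 CPM in the rAAV-OVA mice (Log2FC -1.06 ± 0.28, FDR 0.00671). The other 12 GABA receptor genes did not pass, with a median over the whole list of -0.30.

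Of 24 glutamate receptor genes 0 decreased at the limits, by edgeR, DESeq2 and limma voom alike, and the median was -0.28. At an unadjusted p under 0.05, 6 were lower, where 20.2% of all genes were. By edgeR 2 decreased with no surrogate variables, 2 with the batch label in their place and 1 with the 8 mice alone. Grm8, a presynaptic metabotropic receptor, passed as increased (Log2FC 1.06 ± 0.28, FDR 0.00681) although the groups overlapped, with 2.42, 3.07, 5.899 and 4.07 CPM in the rAAV-control mice and 4.65, 3.57, 5.44 and 5.76 CPM in the rAAV-OVA mice, and was not called with no surrogate variables, with the batch label in their place or with the 8 mice alone. Of 63 potassium and HCN channel genes 9 decreased (14.3%, against 4.72% of all genes), and of 30 sodium and calcium channel genes 1 did (3.33%). Kcnip2, an auxiliary subunit of A-type potassium channels, had 167, 149, 150.3 and 132 CPM in the rAAV-control mice and 61.9, 91.9, 74.7 and 77.3 CPM in the rAAV-OVA mice (Log2FC -0.91 ± 0.24, FDR 0.00675). Kcnk4 (-0.93), Kcng2 (-0.83) and Kcnab2 (-0.82) were the other leading decreases, and Kcng2 lost its call under 8 of 19 alternatives. Scn3b, a sodium channel beta subunit and the single decrease of its list, had 280.5, 264, 229.6 and 204 CPM in the rAAV-control mice and 111, 164, 108 and 135 CPM in the rAAV-OVA mice (Log2FC -0.93 ± 0.20, FDR 0.00164). That list had 3 decreases with no surrogate variables, 4 with the 8 mice alone and 3 without rAAV-control mouse 4. Cacna1g, the T-type calcium channel that supports burst firing, rose in every rAAV-OVA mouse, with 39.8, 38.1, 38.9 and 43.9 CPM in the rAAV-control mice and 62.2, 57.5, 82.6 and 57.5 CPM in the rAAV-OVA mice (Log2FC 1.0 ± 0.16, FDR 0.000103). The pacemaker channel gene Hcn4 (0.99) and the potassium channel gene Kcna3 (0.67), which T cells also express, passed as increased as well, and the potassium and HCN list had 0 increases with no surrogate variables, with the batch label in their place and with ashr shrinkage. Hcn4 had overlapping groups and lost its call under 7 of 19 alternatives.

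Of 14 calcium/calmodulin kinase genes 3 decreased (21.4%, against 4.72% of all genes) and 1 increased, with a median of -0.47, and the decreases were 6 with no surrogate variables, 1 with total-count scaling and 0 in the batch 1 fit. Camk2a, the alpha subunit of the abundant kinase of excitatory synapses, had 6184, 5621, 4726 and 5209 CPM in the rAAV-control mice and 2832, 3819, 2962 and 3276 CPM in the rAAV-OVA mice (Log2FC -0.84 ± 0.20, FDR 0.00328). Camkk2, a kinase that switches on other members of the family, had 158, 153, 147 and 148 CPM in the rAAV-control mice and 76.9, 78.9, 85.1 and 81.9 CPM in the rAAV-OVA mice (Log2FC -0.78 ± 0.13, FDR 0.000134), with a gap between the groups wider than either group's own range. Camkv (-0.7) also decreased, with its call lost under 7 alternatives, while Camk2d, an isoform shared with glia and other cells, passed as increased (0.9) with overlapping groups and lost its call under 5 alternatives, among them no surrogate variables and the 8 mice alone. At the presynaptic terminal 2 of 46 vesicle genes decreased (4.35%, near the 4.72% of all genes), with a median of -0.32. They were the calcium sensor genes Syt3 (Log2FC -0.84 ± 0.17, FDR 0.000778) and Doc2b (Log2FC -0.81 ± 0.20, FDR 0.00423). Without the limit on Log2FC 14 of the 46 were lower (14.1% of all genes were). In 26 (56.5%, against 19.6% of all genes) every rAAV-OVA mouse lay below every control. The vesicle list had 5 decreases with no surrogate variables, 5 with the batch label in their place, 7 with the 8 mice alone and 1 in the batch 1 fit. Sv2c, a synaptic vesicle glycoprotein, increased, with 31.9, 40.6, 30.4 and 31.3 CPM in the rAAV-control mice and 138, 56.4, 100.3 and 102 CPM in the rAAV-OVA mice (Log2FC 2.01 ± 0.37, FDR 0.000346). On the postsynaptic side 3 of 37 scaffold genes decreased (8.11%, against 4.72% of all genes), Iqsec2 (-0.72), Homer2 (-0.67) and Lrrtm4 (-0.67). The scaffold list had 0 decreases without rAAV-OVA mouse 1, without rAAV-OVA mouse 3, with total-count scaling, with ashr shrinkage and in the batch 1 fit. Homer1, whose short form is induced by activity, passed as increased (Log2FC 0.81 ± 0.28, FDR 0.034), although the groups overlapped and it lost its call under 9 of 19 alternatives, among them limma voom, no surrogate variables and the fits without rAAV-OVA mouse 1 or without rAAV-control mouse 1, 3 or 4.

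The neuronal count depended on the samples fitted and on the surrogate variables. The batch 1 fit kept all 8 mice of 5 days and estimated its surrogate variables anew. With those 8 mice alone, and no surrogate variables, the neuronal count was 55. It was 22 without rAAV-OVA mouse 1, 55 with no surrogate variables, 52 without rAAV-control mouse 4, and 12 in a fit of the 23 mice of batch 1 alone, where the medians of the synaptic vesicle, postsynaptic, glutamate and GABA receptor, interneuron, and sodium and calcium channel lists lay between 0.00 and 0.16. In that fit the CA1 and pyramidal list had 1 decrease and a median of -0.13, the granule cell list 3 and -0.17, the CA2 and CA3 list 1 and -0.087, the potassium and HCN channel list 2 and -0.012, and the calcium/calmodulin kinase list 0 and -0.23, and the pan-neuronal median was -0.033. Without rAAV-OVA mouse 1 the decreases were 5 in place of 9 among potassium and HCN channel genes, 3 in place of 5 among granule cell genes and 1 in place of 3 among interneuron genes. Without rAAV-OVA mouse 3 or 4 they were 3 in place of 5 among granule cell genes and among CA1 and pyramidal genes, and without rAAV-control mouse 4 the potassium and HCN channel genes had 16. Fibcd1, Gabra5, Gabrd, Plk5, Lct, Pvalb and Kcnip2 were called under all 19 alternatives, Tdo2 under the 18 that kept it, and Camk2a, Scn3b and Syt3 under all but the batch 1 fit.

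**Figure D3:**
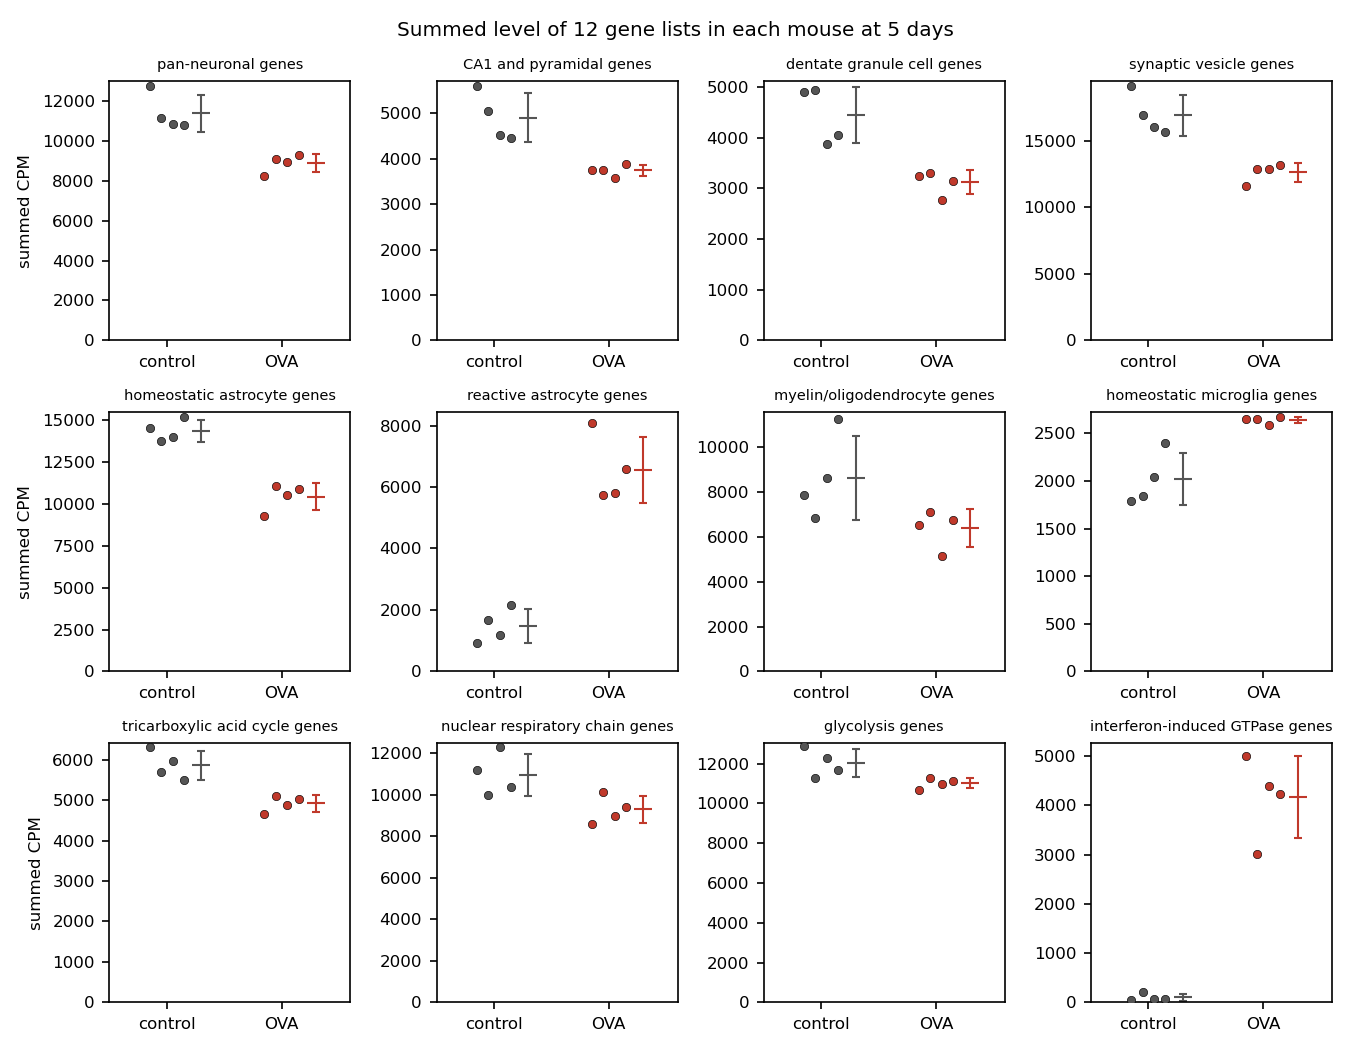
Summed CPM of 12 gene lists in each mouse at 5 days (points, grey for rAAV-control and red for rAAV-OVA), with the mean and SD beside them and each vertical axis starting at 0. Neuronal and homeostatic astrocyte sums lie lower in every rAAV-OVA mouse, myelin sums overlap, and the interferon-induced GTPase sum of every rAAV-OVA mouse is at least 3019.6 CPM against at most 203 CPM in the controls.

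Of 63 genes of neuronal activity and injury 26 increased (41.3%, against 9.63% of all genes) and 1 decreased (1.59%, against 4.72%). Of 25 immediate early genes, which neurons switch on within minutes of firing, 6 increased (24%, against 9.63% of all genes) and 0 decreased, and the median Log2FC was 0.37. Fos had 23.7, 19.5, 14.3 and 23.4 CPM in the rAAV-control mice and 50.6, 43.7, 45.7 and 97.6 CPM in the rAAV-OVA mice (Log2FC 1.77 ± 0.35, FDR 0.000748), and rAAV-OVA mouse 4 was the highest. Npas4, a transcription factor that responds to calcium entry, had 17.4, 12.6, 17.1 and 12.7 CPM in the rAAV-control mice and 14.2, 47.5, 34.6 and 128 CPM in the rAAV-OVA mice (Log2FC 2.0 ± 0.51, FDR 0.0054). Here rAAV-OVA mouse 1 lay within the control range, and the other 3 lay between 34.6 and 128 CPM. Fosb (1.78), Fosl2 (1.49) and Ier3 (1.35) were also increased.

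Secreted and trophic genes that rise late after seizures had a median of 0.84. Among 19 there were 10 increases (52.6%, against 9.63% of all genes) and 1 decrease (5.26%, near the 4.72% of all genes). Inhba, which encodes the activin A subunit, had 7.697, 10.4, 5.38 and 5.97 CPM in the rAAV-control mice and 76.8, 60.6, 53.6 and 126 CPM in the rAAV-OVA mice (Log2FC 3.57 ± 0.42, FDR 6.48e-06). Nptx2, a pentraxin that gathers AMPA receptors at synapses, had 38.9, 43.3, 27.1 and 28.7 CPM in the rAAV-control mice and 258, 149.9, 131 and 259 CPM in the rAAV-OVA mice (Log2FC 2.37 ± 0.29, FDR 8.53e-06). In both genes the lowest rAAV-OVA mouse was well above the highest control. Tac2 (1.6), Tnfrsf11b (1.52) and Rgs4 (1.26) were the next largest. Of 20 genes that neurons raise after damage 10 increased (50%, against 9.63% of all genes) and 0 decreased, and in the batch 1 fit 5 increased. Ecel1, a protease of injured neurons, had 1.03, 1.21, 1.15 and 1.69 CPM in the rAAV-control mice and 8.92, 10.3, 15.2 and 18 CPM in the rAAV-OVA mice (Log2FC 4.15 ± 0.80, FDR 0.000536). Tnfrsf12a, the receptor for the cytokine TWEAK, had 1.66, 2.85, 2.26 and 2.94 CPM in the rAAV-control mice and 37.8, 15.3, 17.3 and 33.5 CPM in the rAAV-OVA mice (Log2FC 2.97 ± 0.37, FDR 9.25e-06). The stress factor gene Atf3 (2.59) and the heat shock gene Hspb1 (1.6) followed. Bulk tissue does not show whether neurons or other cells carried the transcripts of the activity and injury lists, and this was not tested.

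**Figure D4:**
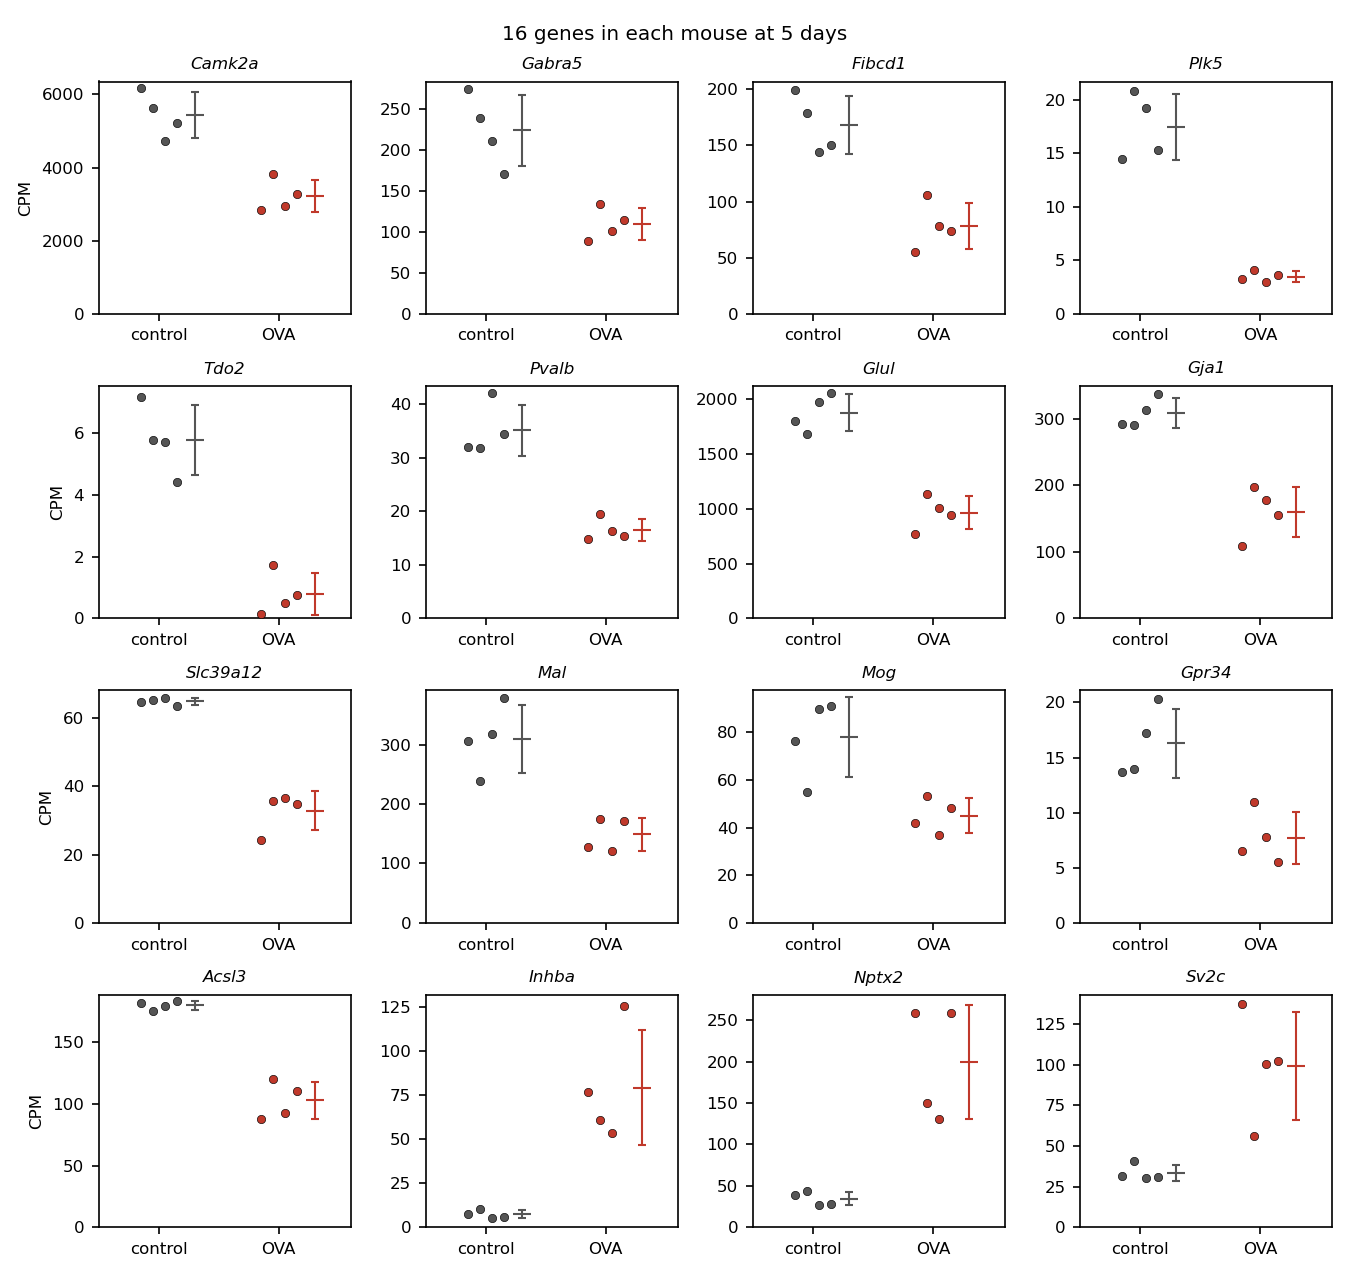
CPM of 16 genes in each mouse at 5 days (points, grey for rAAV-control and red for rAAV-OVA), with the mean and SD beside them and each vertical axis starting at 0. The first 13 genes are lower and the last 3 (Inhba, Nptx2, Sv2c) higher in every rAAV-OVA mouse than in any control.

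Of 169 glial genes 38 increased (22.5%, against 9.63% of all genes) and 28 decreased (16.6%, against 4.72%). The direction differed between the resting and the reactive genes of astrocytes. Of 36 homeostatic astrocyte genes 5 decreased (13.9%, against 4.72% of all genes) and 0 increased, and the median was -0.26. In all 16 passed the FDR as lower (14.1% of all genes did). In 19 genes (52.8%, against 19.6% of all genes) no rAAV-OVA mouse reached a control. Glul, glutamine synthetase, had 1804, 1680.1, 1969.5 and 2055 CPM in the rAAV-control mice and 769, 1135, 1005 and 944 CPM in the rAAV-OVA mice (Log2FC -0.96 ± 0.17, FDR 0.000228). Gja1, the gap junction protein connexin 43, had 292, 289.9, 313 and 338 CPM in the rAAV-control mice and 109, 197, 178 and 155 CPM in the rAAV-OVA mice (Log2FC -0.91 ± 0.15, FDR 0.000154). Slc39a12, a zinc transporter, had 64.7, 65.1, 65.9 and 63.4 CPM in the rAAV-control mice and 24.3, 35.7, 36.6 and 34.7 CPM in the rAAV-OVA mice (Log2FC -0.97 ± 0.12, FDR 1.17e-05). All 3 were lowest in rAAV-OVA mouse 1, and in Slc39a12 the controls lay within a few CPM of each other. Ntsr2, a neurotensin receptor, (Log2FC -0.99 ± 0.12, FDR 9.25e-06) and Mlc1, a membrane protein of astrocyte endfeet, (Log2FC -0.67 ± 0.16, FDR 0.0029) were the other calls, and Mlc1 lost its call under 12 alternatives.

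Reactive astrocyte genes numbered 20 increases (60.6%, against 9.63% of all genes) and 2 decreases (6.06%, against 4.72%) among 33, with a median of 1.6. In the batch 1 fit 13 increased. Their summed level was 909, 1658, 1181 and 2170.4 CPM in the rAAV-control mice and 8066, 5739, 5810.5 and 6592 CPM in the rAAV-OVA mice. Gbp2, an interferon-induced GTPase used as a marker of inflammatory astrocytes, had 6.22, 36.4, 9.27 and 10.9 CPM in the rAAV-control mice and 1036, 558, 853 and 839 CPM in the rAAV-OVA mice (Log2FC 4.61 ± 0.76, FDR 0.000132). Ptx3, a secreted pentraxin, had 0.761, 3.29, 0.8904 and 2.26 CPM in the rAAV-control mice and 109, 13.6, 41.3 and 46.6 CPM in the rAAV-OVA mice (Log2FC 4.04 ± 0.67, FDR 0.00014), with rAAV-OVA mouse 1 highest. Iigp1 (5.11), Cxcl10 (4.82) and Tgm1 (3.1) completed the largest 5, and Gbp2, Iigp1 and Cxcl10 stand in the immune lists too, since other inflamed cells make them. Fbln5 (-1.19) and Cd109 (-0.72) passed as decreased, against the list, with overlapping groups for Cd109. The list had 0 decreases without rAAV-OVA mouse 1, 3 or 4, without rAAV-control mouse 2, with total-count scaling and with ashr shrinkage.

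Myelin and oligodendrocyte genes had the highest share of decreases outside the choroid plexus and red blood cell lists, 17 of 35 (48.6%, against 4.72% of all genes), with a median Log2FC of -0.66 and 0 increased. Mal, a raft protein of compact myelin, had 306, 239, 317 and 378 CPM in the rAAV-control mice and 127, 175, 121 and 171 CPM in the rAAV-OVA mice (Log2FC -1.23 ± 0.25, FDR 0.000774). Mog, the outermost myelin glycoprotein, had 76.2, 55.1, 89.7 and 91.1 CPM in the rAAV-control mice and 42.1, 53.4, 36.8 and 48.1 CPM in the rAAV-OVA mice (Log2FC -1.05 ± 0.26, FDR 0.00416), where the highest rAAV-OVA mouse lay just below the lowest control. Tmem125 (-1.09), Enpp6 (-1.07) and Plekhh1 (-1.0) were also decreased, as was the defining marker Mbp (Log2FC -0.93 ± 0.26, FDR 0.00879). The summed level was 7879, 6844, 8614 and 11248 CPM in the rAAV-control mice and 6549.5, 7120, 5148 and 6777 CPM in the rAAV-OVA mice, so the groups overlapped and rAAV-control mouse 4 stood highest. Without that mouse 11 genes were called, as many as with no surrogate variables, and in the batch 1 fit 22. How much white matter each dissection carried was not measured, and its part in this result was not tested. Among 18 genes of oligodendrocyte precursors the counts were 1 and 1 (5.56% each, against 9.63% of all genes increased and 4.72% decreased), the growth factor gene Bmp4 decreased (-0.96) and Pcdh15 increased (0.73), and neither call held under every alternative.

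Of 23 homeostatic microglia genes 5 increased (21.7%, against 9.63% of all genes) and 1 decreased, with a median of 0.29. Tmem119 had 28.1, 31.6, 34.1 and 47.02 CPM in the rAAV-control mice and 85.4, 74.5, 65.9 and 76.2 CPM in the rAAV-OVA mice (Log2FC 0.76 ± 0.27, FDR 0.039). Csf1r, the receptor on which microglia depend, had 144, 162, 163 and 256 CPM in the rAAV-control mice and 380.2, 416, 399.6 and 358 CPM in the rAAV-OVA mice (Log2FC 0.73 ± 0.26, FDR 0.0367). In both genes the rAAV-OVA mice were all higher in CPM. The list had 0 increases in the batch 1 fit, 0 without rAAV-OVA mouse 3, rAAV-control mouse 1 or rAAV-control mouse 2, and 7 without rAAV-control mouse 4. Gpr34, a lysophosphatidylserine receptor of resting microglia, fell, with 13.6, 13.9, 17.3 and 20.3 CPM in the rAAV-control mice and 6.51, 10.9, 7.77 and 5.56 CPM in the rAAV-OVA mice (Log2FC -1.24 ± 0.25, FDR 0.000761), and was called under all 19 alternatives. Disease-associated genes rose in 12 of 25 cases (48%, against 9.63% of all genes). The count was 6 without rAAV-control mouse 2, 7 without rAAV-OVA mouse 3 and 5 in the batch 1 fit. The largest rise was that of Lgals3, galectin 3, with 1.07, 5.12, 1.82 and 4.61 CPM in the rAAV-control mice and 90.9, 62.9, 74.2 and 44.8 CPM in the rAAV-OVA mice (Log2FC 3.42 ± 0.63, FDR 0.00035). Cst7 (3.1), Itgax (3.07), Clec7a (2.59) and Cd52 (2.42) came next, while Lpl, lipoprotein lipase, (Log2FC -1.06 ± 0.17, FDR 9.1e-05) and Apoe (Log2FC -0.79 ± 0.22, FDR 0.00913) were lower. Of 28 monocyte and macrophage genes 20 increased as well (71.4%, against 9.63% of all genes), with a median of 2.59. Whether microglia or other cells carried the transcripts of the 2 microglia lists was not tested.

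Few metabolic genes passed both limits. Of 211 genes in 7 measured lists 9 increased and 3 decreased, the median Log2FC was -0.20 and 159 lay below 0. Without the limit on Log2FC 49 passed the FDR as lower and 14 as higher, against 14.1% and 15.3% of all genes. The 3 decreases were Tdo2, Acaa2 and Acsl3, and their share of the lists, 1.42%, was below the 4.72% of all genes.

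Respiratory chain genes of the nucleus, which encode subunits of complexes I to V, gave 0 calls among 77, by edgeR, DESeq2 and limma voom. Their Log2FC lay between -0.54 and 0.12 with a median of -0.28, 75 of 77 lay below 0, 46 were lower at an unadjusted p under 0.05 (20.2% of all genes were) and 23 at the FDR (14.1% of all genes). In 16 of the 77 (20.8%) every rAAV-OVA mouse lay below every control, near the 19.6% of all genes. Their summed level was 11176, 9988, 12269 and 10382 CPM in the rAAV-control mice and 8579, 10144, 8978 and 9416 CPM in the rAAV-OVA mice. A single rAAV-OVA mouse, mouse 2, lay above the lowest control. Atp5a1, a subunit of ATP synthase, had 939, 847, 825 and 746 CPM in the rAAV-control mice and 676, 718, 691 and 712 CPM in the rAAV-OVA mice (Log2FC -0.26 ± 0.09, FDR 0.0274), and Cox4i1, of complex IV, 418, 366, 520.2 and 442 CPM in the rAAV-control mice and 289, 399, 312 and 329.6 CPM in the rAAV-OVA mice (Log2FC -0.46 ± 0.17, FDR 0.0458). With total-count scaling 69 of 77 stayed below 0 and the median was -0.14, against 0.12 for all genes. The 13 mitochondrially encoded genes were not analysed here.

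Enzymes of the tricarboxylic acid cycle had 0 calls among 34 by the same 3 methods and a median of -0.19. At an unadjusted p under 0.05, 15 were lower (20.2% of all genes were), and 11 at the FDR (14.1% of all genes). Sdha, of succinate dehydrogenase, had 380.4, 353, 351 and 344 CPM in the rAAV-control mice and 281, 301, 297 and 307 CPM in the rAAV-OVA mice (Log2FC -0.21 ± 0.06, FDR 0.0176), and the groups did not overlap. Of 26 fatty acid oxidation genes 2 decreased (7.69%, against 4.72% of all genes), Acaa2, a thiolase, (Log2FC -0.82 ± 0.20, FDR 0.00401) and Acsl3. Acsl3, an acyl-CoA synthetase, had 182, 175, 179.6 and 183 CPM in the rAAV-control mice and 88.2, 121, 92.6 and 110.4 CPM in the rAAV-OVA mice (Log2FC -0.74 ± 0.13, FDR 0.000193), and its 4 controls were nearly equal. Cholesterol synthesis genes gave 0 calls among 26 by edgeR, DESeq2 and limma voom. At an unadjusted p under 0.05, 6 were lower and 1 higher, where 20.2% of all genes were lower and 20.2% higher. The median of -0.08 turned to 0.05 with total-count scaling and 0.12 in the batch 1 fit.

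The 9 metabolic increases, 4.27% of the listed genes and below the 9.63% of all genes, were genes of glycolysis, arginine and tryptophan use. Hk2, the inducible hexokinase, had 7.83, 9.5, 7.35 and 13.03 CPM in the rAAV-control mice and 57.8, 39.5, 55.2 and 43.99 CPM in the rAAV-OVA mice (Log2FC 1.8 ± 0.31, FDR 0.00017). Pfkfb3, which makes the activator of phosphofructokinase, had 38.9, 46.8, 32.1 and 47.8 CPM in the rAAV-control mice and 97.4, 87.9, 93.1 and 90.9 CPM in the rAAV-OVA mice (Log2FC 0.86 ± 0.16, FDR 0.000306), and the lactate exporter gene Slc16a3 rose as well (Log2FC 2.45 ± 0.52, FDR 0.00116). They were the 3 increases among 25 glycolysis genes, whose median was 0.01, a share of 12% that is near the 9.63% of all genes. Nos2, the inducible nitric oxide synthase, had 1.43, 1.94, 1.22 and 1.02 CPM in the rAAV-control mice and 40.2, 26.6, 88.5 and 29.02 CPM in the rAAV-OVA mice (Log2FC 4.61 ± 0.53, FDR 6.25e-06), and Odc1, the first enzyme of polyamine synthesis, 75.7, 84.7, 76.1 and 68.3 CPM in the rAAV-control mice and 253, 174, 161 and 240.1 CPM in the rAAV-OVA mice (Log2FC 1.26 ± 0.15, FDR 6.64e-06). Ass1, which makes argininosuccinate, increased too (0.83). The arginine and polyamine list had 4 increases among 19, and activated macrophages are known to express Nos2. Along the kynurenine route Haao (Log2FC 2.51 ± 0.56, FDR 0.00172) and Afmid (Log2FC 0.97 ± 0.35, FDR 0.0408), which lost its call under 8 of 18 alternatives, increased while Tdo2 fell as given above.

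Among vascular genes 13 of 58 increased (22.4%, against 9.63% of all genes) and 3 decreased (5.17%, near the 4.72% of all genes). Of 16 genes of leukocyte adhesion 10 increased (62.5%), 5 in the batch 1 fit and 7 without rAAV-OVA mouse 3 or without rAAV-control mouse 1, 2 or 3, among them Itgal, an integrin of T cells and myeloid cells, with 0.492, 2.16, 1.22 and 2.57 CPM in the rAAV-control mice and 80.8, 63.8, 88.1 and 61.7 CPM in the rAAV-OVA mice (Log2FC 4.58 ± 0.76, FDR 0.000142), and the endothelial receptors Icam1 (2.38) and Vcam1 (1.52). The calls among endothelial barrier genes, 1 increase and 2 decreases of 27 (3.7% and 7.41%), and among mural cell genes, 2 and 1 of 15 (13.3% and 6.67%), stood at or near those shares of all genes, the barrier increases below them. Of the barrier genes Mfsd2a, the lipid transporter that restrains transcytosis, increased, with 14.3, 15.6, 16.1 and 18.9 CPM in the rAAV-control mice and 34.4, 35.03, 26.1 and 37.3 CPM in the rAAV-OVA mice (Log2FC 1.09 ± 0.26, FDR 0.00347), and Itm2a decreased, with 51.5, 51.7, 55.7 and 54.3 CPM in the rAAV-control mice and 24.1, 37.8, 32.5 and 32.2 CPM in the rAAV-OVA mice (Log2FC -0.86 ± 0.19, FDR 0.00145). Slco1a4, an organic anion transporter, decreased too (Log2FC -0.77 ± 0.19, FDR 0.0036), and the median of the list was 0.00. Of the mural cell genes Anpep (Log2FC 2.53 ± 0.51, FDR 0.000749) and Tagln (Log2FC 1.69 ± 0.35, FDR 0.00088) increased and Ndufa4l2 passed as decreased (-0.71), a call lost under 6 alternatives.

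Of 342 listed immune genes 297 were in the table. Most of these 297 increased, 241 (81.1%) against 9.63% of all genes, 2 decreased, and the median Log2FC was 2.3. In 87.5% of them every rAAV-OVA mouse lay above every control, against 21% of all genes. The 2 decreases were Cxcl12, a chemokine that neurons and glia make at rest (Log2FC -0.87 ± 0.20, FDR 0.00226), and Bbc3, a mediator of apoptosis (Log2FC -0.92 ± 0.22, FDR 0.0026). All 11 T cell receptor and signalling genes in the table were increased. Cd8a had 0.134, 1.35, 0.371 and 0.108 CPM in the rAAV-control mice and 42.3, 43.2, 46.2 and 32.02 CPM in the rAAV-OVA mice (Log2FC 5.45 ± 0.65, FDR 7.56e-06), and was near 0 in the controls, which carry the same T cells. Of 3 measured B cell genes and 3 measured neutrophil genes 0 passed by edgeR, with 1 of each higher at an unadjusted p under 0.05. DESeq2 and limma voom called 0 B cell genes and 1 neutrophil gene each. Ly6c2, a marker of blood monocytes, had 0.0895, 2.302, 0.631 and 0.449 CPM in the rAAV-control mice and 149, 101, 145 and 83.2 CPM in the rAAV-OVA mice (Log2FC 6.06 ± 0.76, FDR 1.06e-05). Near-identical families such as the Gbp, Ly6 and H2-Q genes share reads, and their single members are uncertain.

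All 19 interferon-induced GTPase genes and 38 of 39 type I interferon response genes increased, with medians of 4.66 and 2.87. The GTPases summed to 54.1, 203, 70.7 and 76.2 CPM in the rAAV-control mice and 5008, 3019.6, 4389 and 4231 CPM in the rAAV-OVA mice. Isg15, a ubiquitin-like protein of antiviral defence, had 0.761, 3.73, 1.15 and 1.96 CPM in the rAAV-control mice and 64.2, 26.5, 46.8 and 58.6 CPM in the rAAV-OVA mice (Log2FC 3.74 ± 0.72, FDR 0.000512). Cxcl10, which attracts activated T cells, had 0.895, 10.9, 1.85 and 2.92 CPM in the rAAV-control mice and 366, 119, 267 and 259.8 CPM in the rAAV-OVA mice (Log2FC 4.82 ± 0.88, FDR 0.000307). Irf1, a transcription factor induced by interferon-gamma that was chosen after its values were seen, had 5.95, 10.3, 7.01 and 6.89 CPM in the rAAV-control mice and 214, 122, 199.7 and 164 CPM in the rAAV-OVA mice (Log2FC 3.6 ± 0.52, FDR 4.62e-05). In each of the 3 genes rAAV-control mouse 2 was the highest control and rAAV-OVA mouse 2 the lowest of its group.

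The promoters of 4 interferon targets are shown because these lists moved together and interferon signals reach genes through short motifs, the ISRE and the GAS element. They are RefSeq sequences of GRCm38.p6, from 250 bases before to 50 after the start of the gene, each 5′ to 3′ on the strand of the gene, with matches to the searched letters in capitals. The searched motifs were GAAA followed by any 2 bases and GAAA again, on either strand (ISRE-like), and TTCNNNGAA, which reads the same on both strands (GAS-like), and no match to one overlaps a match to the other in the sequences shown. Isg15 lies on the minus strand at chr4:156200769-156201068, with overlapping ISRE-like matches starting at -78, -72 and -66 from the start of the gene. Cxcl10 lies on the minus strand at chr5:92348840-92349139 and has a match at -213. Gbp2 lies on the plus strand at chr3:142620413-142620712 with a match at -59 on the opposite strand. Irf1 lies on the plus strand at chr11:53769764-53770063 with a GAS-like match at -90. Irf1 had 2 promoter entries, and the other, which held neither motif, is not shown.
Isg15: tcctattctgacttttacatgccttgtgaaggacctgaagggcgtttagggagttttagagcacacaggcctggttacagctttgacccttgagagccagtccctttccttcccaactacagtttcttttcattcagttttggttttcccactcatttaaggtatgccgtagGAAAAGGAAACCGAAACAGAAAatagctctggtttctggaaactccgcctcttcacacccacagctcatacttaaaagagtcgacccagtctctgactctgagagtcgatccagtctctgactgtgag
Cxcl10: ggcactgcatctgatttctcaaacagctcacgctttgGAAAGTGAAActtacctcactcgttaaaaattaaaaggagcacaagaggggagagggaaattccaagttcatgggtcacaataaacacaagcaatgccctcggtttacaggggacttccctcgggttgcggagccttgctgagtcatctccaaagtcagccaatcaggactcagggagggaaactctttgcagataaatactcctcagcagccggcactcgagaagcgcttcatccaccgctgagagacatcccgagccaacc
Gbp2: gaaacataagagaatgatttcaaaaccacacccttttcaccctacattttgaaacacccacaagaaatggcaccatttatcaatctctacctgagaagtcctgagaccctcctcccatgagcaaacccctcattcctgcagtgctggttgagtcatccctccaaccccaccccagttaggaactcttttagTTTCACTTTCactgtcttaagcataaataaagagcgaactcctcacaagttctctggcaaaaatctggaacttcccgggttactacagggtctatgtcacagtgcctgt
Irf1: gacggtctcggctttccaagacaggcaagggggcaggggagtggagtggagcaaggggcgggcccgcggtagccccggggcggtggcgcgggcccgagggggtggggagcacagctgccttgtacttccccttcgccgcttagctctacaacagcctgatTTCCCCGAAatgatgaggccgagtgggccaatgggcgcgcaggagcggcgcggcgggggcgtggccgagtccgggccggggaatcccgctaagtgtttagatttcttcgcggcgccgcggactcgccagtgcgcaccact

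A promoter was found for 11548 of the 15648 genes. Of these 3.81% held the ISRE-like letters, against 11.4% of the 1127 increased genes, 4.63% of the 497 decreased genes and 2.91% of the 9924 genes not called. Within the lists, 9 of 10 GTPase promoters and 16 of 29 type I interferon response promoters held them. The GAS-like letters stood in 8.12% of all promoters, 11% of the increased and 7.65% of the decreased genes. These matches describe letters and do not show binding.

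Antigen presentation genes increased as well. Of 25 MHC class I and processing genes 24 increased, and all 12 MHC class II genes did, with medians of 2.50 and 3.24. Tap1, which carries peptides to class I, had 4.12, 10.05, 5.79 and 6.58 CPM in the rAAV-control mice and 218, 143, 206 and 181 CPM in the rAAV-OVA mice (Log2FC 3.82 ± 0.57, FDR 5.89e-05). Cd74, the invariant chain of class II, had 5.59, 42.7, 14.9 and 13.9 CPM in the rAAV-control mice and 1239, 1148, 1453 and 1197 CPM in the rAAV-OVA mice (Log2FC 5.1 ± 0.91, FDR 0.000265). Of the 22 complement genes 14 increased, led by Cfb (5.65), and 8 were called without rAAV-OVA mouse 3, rAAV-control mouse 1 or rAAV-control mouse 2 and 7 in the batch 1 fit. Cell cycle genes increased in 32 of 37 cases, among them Mki67, with 1.75, 4.42, 2.93 and 4.72 CPM in the rAAV-control mice and 51.1, 53.4, 45.2 and 34.9 CPM in the rAAV-OVA mice (Log2FC 3.18 ± 0.51, FDR 0.000102). Zbp1, a sensor that can start necroptosis, had 0.492, 1.97, 0.8904 and 0.61 CPM in the rAAV-control mice and 82.8, 50.5, 71.8 and 71.4 CPM in the rAAV-OVA mice (Log2FC 5.07 ± 0.77, FDR 6.26e-05), the largest of 26 increases among 31 inflammasome and cell death genes. Gzmb, granzyme B, had 0.0895, 0.329, 0.111 and 0.0718 CPM in the rAAV-control mice and 44.6, 11.6, 41.98 and 26.5 CPM in the rAAV-OVA mice (Log2FC 6.8 ± 0.84, FDR 9.25e-06), the largest increase of all genes with separate groups and at least 5 CPM. Next by size were Gpr171 (Log2FC 6.33), Gbp10 (6.24), F830016B08Rik (6.15), Xcl1 (6.12), Ly6i (6.11), Ly6c2, Gpr141 (5.92), Serpina3f (5.83) and Gm4841 (5.78).

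Across all genes, the 15 largest decreases with separate groups and at least 5 CPM were led by Tdo2, and they also held Plk5 and Lct. Fcrl2, an Fc receptor-like gene, had 42.1, 39.2, 52.1 and 80.6 CPM in the rAAV-control mice and 7.79, 17.5, 6.21 and 7.65 CPM in the rAAV-OVA mice (Log2FC -2.2 ± 0.28, FDR 1.22e-05). Cdhr1, a cadherin-related gene, had 18.8, 36.2, 12.5 and 11.8 CPM in the rAAV-control mice and 3.26, 5.95, 4.61 and 5.76 CPM in the rAAV-OVA mice (Log2FC -2.08 ± 0.30, FDR 4.68e-05). Lefty1, a secreted inhibitor of nodal signals, had 10.6, 11.8, 9.39 and 10.01 CPM in the rAAV-control mice and 3.68, 6.22, 2.69 and 3.84 CPM in the rAAV-OVA mice (Log2FC -1.78 ± 0.29, FDR 0.000124). These 3 genes, and Igsf1 (-1.77) and Car14 (-1.63), a carbonic anhydrase, were called under all alternatives. Sebox (-2.04) and 2 genes with no symbol, ENSMUSG00000104586 (-2.22) and ENSMUSG00000102234 (-1.91), were also among them. Sostdc1 (Log2FC -2.99 ± 0.98, FDR 0.0237), Igf2 (Log2FC -2.09 ± 0.61, FDR 0.0119), Slc13a4 (-2.07) and Msx1 (-1.85) were highest in rAAV-control mouse 2, the choroid plexus library, and were not called without it.

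The response at 5 days was set against those at 8 and 28 days by testing the difference itself. At 28 days each group held 2 mice of each batch, while all mice of 5 and 8 days were of batch 1. Between 5 and 8 days 28 genes differed, 19 higher (0.121% of all genes) and 9 lower (0.0575%) at 5 days. The 8-day control group held 3 mice, and its mouse 2 stood apart in immune genes: Cd74 was at 23.3, 916 and 60.1 CPM and Gzmb at 0.33, 8.11 and 0.68 CPM in control mice 1 to 3 of 8 days. Without that mouse 9 genes differed, 7 higher and 2 lower, all of them among the 28, and without mouse 1 or mouse 3 16 and 23 genes did. Inhba had a Log2FC of 3.57 at 5 days, 0.40 at 8 and 0.15 at 28, and its difference was 3.17 ± 0.58 against 8 days (FDR 0.0215) and 3.42 ± 0.54 against 28 days (FDR 0.000581). Nptx2 went from 2.37 to 0.12 and -0.66 (difference against 8 days 2.26 ± 0.40, FDR 0.0176). Without the 8-day control mouse 2 the differences were 3.005 ± 0.60 and 2.10 ± 0.42, both with an FDR of 0.0501. Olfm4, Acvr1c, an activin family receptor, and Mfap4 were the other leading genes, with differences of 2.37, 2.01 and 1.92. Per3, Prodh, Gldc, Ccdc74a and Phkg1 were lower at 5 days than at 8, by differences of -1.44, -1.29, -0.96, -0.82 and -0.82. In the batch 1 fit Olfm4, Gldc, Ccdc74a and Phkg1 missed the FDR limit, with 0.0725, 0.0651, 0.114 and 0.1002.

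Against 28 days 361 genes responded higher (2.31%) and 598 lower (3.82%) at 5 days. Of 19 late seizure-response genes 11 were higher, and 9 with batch 1 alone. Cholesterol synthesis genes were higher in 8 of 26 cases (3 with batch 1 alone), with a median Log2FC of -0.08 at 5 days and -0.54 at 28. Homeostatic astrocyte genes were lower in 8 of 36 cases (3), with medians of -0.26 and 0.16, endothelial barrier genes in 7 of 27 (2) and fatty acid oxidation genes in 7 of 26 (0). Of 20 CA1 and pyramidal genes 3 were higher at 5 days (0), where 5 had been called decreased against 16 at 28 days. The myelin list, with 17 decreases at 5 days, 1 at 8 and 0 at 28, differed significantly in 2 of 35 genes, and in 0 with batch 1 alone.

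**Figure D5:**
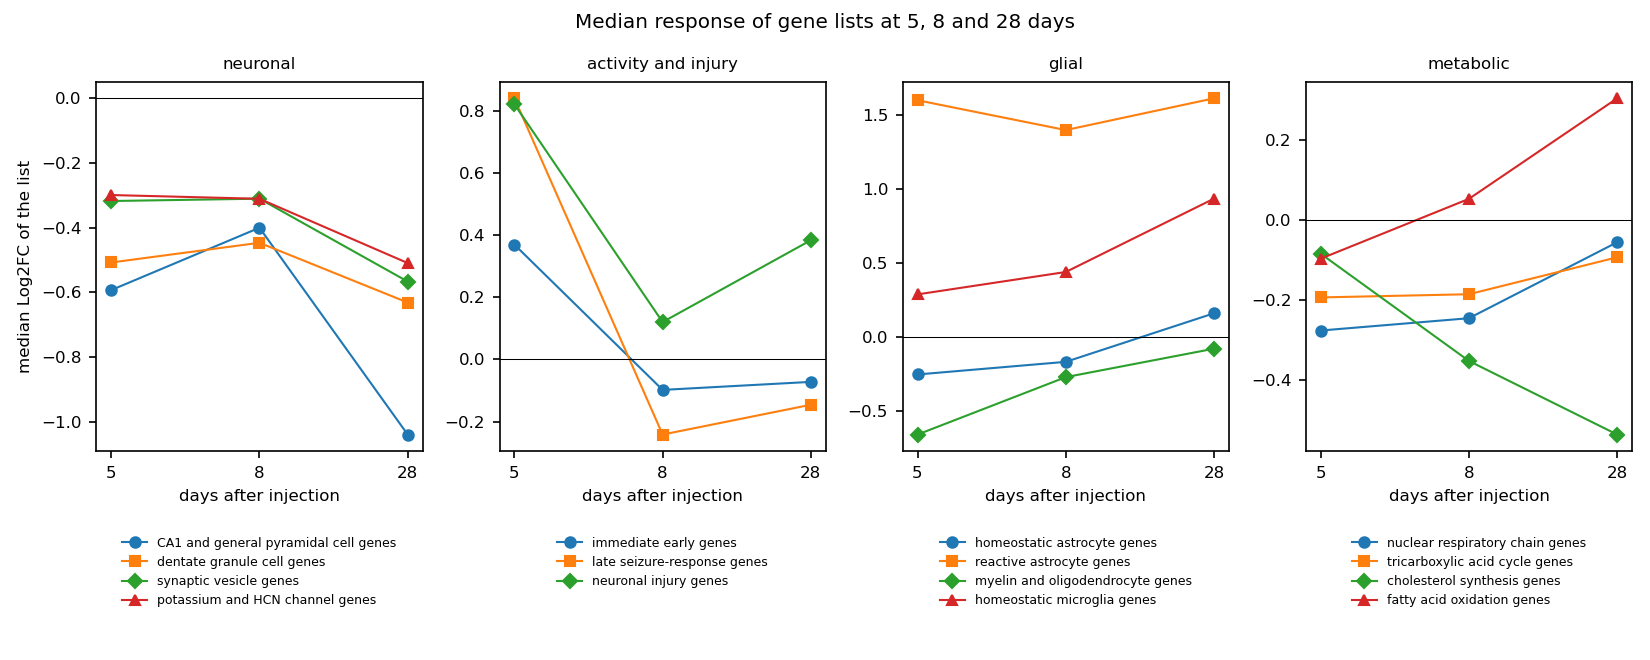
Median Log2FC of gene lists (vertical axes, a scale for each panel) at 5, 8 and 28 days after injection (horizontal axes, evenly spaced). The activity lists have medians above 0 at 5 days alone of the 3 days, except the neuronal injury genes, which stay above 0, and the CA1 list is lowest at 28 days.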

How the data were processed

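Left hippocampi of 31 mice in 8 groups were profiled by bulk RNA-seq, with polyA-selected libraries and Illumina paired-end reads. The authors trimmed the reads, quantified them with Salmon 1.8.0 against the GENCODE mouse annotation of GRCm39, summed transcripts to genes and dropped genes that failed to reach 15 counts in 15 mice, and they deposited the estimated counts per gene without normalization. A gene detected only in the rAAV-OVA mice of 5, 8 and 28 days cannot reach 15 mice, so such genes were not analysed here. The submitters' processing notes also list DESeq2 1.36.0.

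The estimated counts, whole numbers as deposited, were tested with edgeR 4.0.16 in R 4.3.3 by quasi-likelihood F-tests (TMM, robust) over all 15648 genes. Covariates were 2 surrogate variables, estimated with sva 3.50.0, beside the 8 groups. Genes were called when the Benjamini-Hochberg FDR was 0.05 or lower and the Log2FC reached 0.66 in either direction. CPM are per 1e+06 TMM-scaled counts. Each mouse gave a library, and libraries within a group are the replicates. Counts without molecular identifiers carry counting error and amplification error together. Alternatives were DESeq2 1.42.0 with and without ashr 2.2.63, limma voom 3.58.1, other scalings, other covariates, fewer mice, a stricter count filter and each of the 8 mice left out. Leaving out each 8-day control was added after seeing the data. The steps were tested on simulated data.

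The gene lists, the named genes and the tests were chosen with earlier results of these data known. Values are given for up to 5 calls per list, for calls against their list's direction, for defining cell type markers, for the most abundant genes of a list with no call, for the 10 largest increases and 15 largest decreases with groups that do not overlap and a mean of at least 5 CPM, and for the 5 largest differences between days in each direction. Of the genes 824 had no symbol, and some genes that the rule names are not reported here. Promoters came from RefSeq (GRCm38.p6), a build other than that of the counts, and were matched by gene.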

Additional observations from a re-analysis of the deposited data

Results flagged for a closer look

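In 27 of 242 groups of 4 mice tested (11.2%), the highest or lowest mouse lay apart, its gap to the nearest mouse over the range of the group exceeding 0.829. For a single group chance gives about 1 in 20. The groups are not independent, since sums stand beside their own genes, and the genes were chosen with earlier results known. The share is therefore a description and shows no excess over chance. Of the 27 groups 10 were set by rAAV-control mouse 2. For that mouse the ratio was 0.98 for the choroid plexus and ependymal sum, 0.977 for Ttr, 0.985 for Enpp2, 0.961 for Sostdc1, 0.852 for Igf2, 0.852 for the interferon-induced GTPase sum, 0.845 for Gbp2, 0.874 for Cxcl9, 0.846 for Gzmb and 0.859 for Sv2c, each time as the highest control. In rAAV-control mouse 3 it was 0.911 for the red blood cell sum, 0.88 for Hba-a1 and 0.855 for Gabrd, all highest, and 0.866 for the immediate early and 0.889 for the pericyte and smooth muscle sum, both lowest. The pan-neuronal (0.835) and interneuron (0.94) sums were highest in rAAV-control mouse 1 and Csf1r (0.829) in rAAV-control mouse 4.

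Among the rAAV-OVA mice, mouse 4 was apart in the choroid plexus and ependymal sum (0.862), Ttr (0.858), Enpp2 (0.855) and Fos (0.872) as the highest, and in the T cell (0.854) and cell cycle (0.861) sums as the lowest. Mouse 1 was highest for Pdzd2 (0.85) and lowest for Slc39a12 (0.849), and mouse 2 highest for Fcrl2 (0.859).

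For the genes below the response differed between days by a test of the difference. Between 5 and 28 days the difference in Log2FC was 4.17 for Gzmb, 3.82 for Ptx3, 3.60 for F830016B08Rik, 3.42 for Inhba and 3.19 for Gm34567, all higher at 5 days. It was -5.89 for Glycam1, -3.17 for Pla2g2d, -3.14 for Apoc1 and -2.83 for Rxrg. With the mice of batch 1 alone the FDR was 0.0048 for Inhba, 0.0116 for Gm34567, 0.0268 for Glycam1 and 0.0215 for Apoc1, and above the limit for the other 5, with a difference of 1.10 for Gzmb (FDR 0.88).

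Between 5 and 8 days it was 3.17 for Inhba, 2.37 for Olfm4, 2.26 for Nptx2, 2.01 for Acvr1c and 1.92 for Mfap4, and -1.44 for Per3, -1.29 for Prodh, -0.96 for Gldc, -0.82 for Ccdc74a and -0.82 for Phkg1. With the mice of batch 1 alone Olfm4, Gldc, Ccdc74a and Phkg1 missed the FDR limit, and without the 8-day control mouse 2, which stood apart in immune genes, Inhba and Nptx2 had an FDR of 0.0501.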

How the results depend on the processing

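Of the 190 named genes called at 5 days, 129 were called under all of the up to 19 alternatives that tested them and 61 lost the call in at least 1, 53 of them in the batch 1 fit, 33 without rAAV-OVA mouse 1 and 16 with total counts. The cause was not tested for any change given here, other than by the construction of the alternative. With FDR alone, 2391 genes increased and 2199 decreased, with 97 neuronal, 46 glial and 49 metabolic decreases, and 1483 genes differed between 5 and 28 days. With ashr shrinkage the decreases were 383 in all, 17 neuronal and 18 glial, and with total counts 430 and 22 neuronal. In the batch 1 fit 12 neuronal genes decreased and 288 genes differed between 5 and 28 days. With no surrogate variables or the batch label in their place, 5 metabolic genes decreased in either fit, 15 and 18 genes differed between 5 and 8 days, and 400 and 494 between 5 and 28 days. DESeq2 called 63 genes between 5 and 8 days, and 54 with ashr. Requiring 15 counts in every mouse left fewer genes tested and 155 immune increases.

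Leaving out each mouse in turn gave 1306 to 1715 increases and 414 to 756 decreases (414 without rAAV-OVA mouse 1, where 77.5% of calls were increases), 22 to 52 neuronal, 20 to 32 glial and 2 to 3 metabolic decreases, 225 to 250 immune increases, 8 to 34 genes between 5 and 8 days (8 without rAAV-control mouse 4, 10 without rAAV-OVA mouse 1, 11 without rAAV-OVA mouse 4, 12 and 16 without rAAV-control mice 2 and 1, and, chosen after seeing the data, 9 to 23 without each 8-day control) and 515 to 953 between 5 and 28 days (515 without rAAV-OVA mouse 1, 568 without rAAV-control mouse 4). Among the named genes the Log2FC changed sign only in genes not called: Rxrg (-0.48 with no surrogate variables and with the batch label, -0.44 with the 8 mice alone, -0.041 without rAAV-control mouse 4 and at most 0.393 without another mouse), Map2 (-0.010 with no surrogate variables and with the batch label), Bank1 (from -0.203 to 0.024 across the mice left out, above 0 without rAAV-control mouse 1 or 3), Cd79b (-0.18) and Hdc (-0.21) in the batch 1 fit, and S100a8 (from -0.125 to 0.676 across the mice left out, below 0 without rAAV-control mouse 1 or 2).

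The differences between days could not be computed from the 8 mice of 5 days alone. No paired analysis was possible because the labels give no name or number that mice of both groups share. Low genes near 0 CPM in the controls, such as Gzmb and Cd8a, have folds that depend on few counts.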

Other observations

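Lists of circadian clock genes and of amino acid and ketone body enzymes were drawn up after their values were seen, so their counts are a description. Of 19 clock genes 2 increased (10.5%, against 9.63% of all genes) and 5 decreased (26.3%, against 4.72%) at 5 days, with a median Log2FC of -0.25. Dbp, a transcription factor whose level follows the clock, had 42.5, 40.9, 57.1 and 55.7 CPM in the rAAV-control mice and 12.4, 22.4, 15.5 and 10.8 CPM in the rAAV-OVA mice (Log2FC -1.5 ± 0.24, FDR 0.000104). Hlf (Log2FC -1.01 ± 0.17, FDR 0.000134) and Tef (Log2FC -0.76 ± 0.14, FDR 0.000353), of the same family, decreased too, as did Per3 (-1.14) and Ciart (-0.69). Nfil3, which binds the same sites as a repressor, increased, with 8.64, 13.01, 7.72 and 10.6 CPM in the rAAV-control mice and 23.5, 21.7, 21.3 and 30.9 CPM in the rAAV-OVA mice (Log2FC 1.09 ± 0.16, FDR 4.26e-05), and so did Bhlhe41 (0.69). The hour at which each mouse was killed was not used here, and its part was not tested.

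Of 22 enzymes of amino acid and ketone body use, several of them known from astrocytes, 6 decreased (27.3%, against 4.72% of all genes) and 0 increased, with a median of -0.29. Prodh, proline dehydrogenase, had 17.9, 17.6, 22.8 and 25.2 CPM in the rAAV-control mice and 5.58, 8.81, 8.93 and 6.03 CPM in the rAAV-OVA mice (Log2FC -1.44 ± 0.19, FDR 1.47e-05). Gldc, of the glycine cleavage system, had 53.6, 56.2, 61.4 and 66.1 CPM in the rAAV-control mice and 19, 30.4, 27.4 and 25.01 CPM in the rAAV-OVA mice (Log2FC -1.21 ± 0.14, FDR 5.45e-06), and the groups did not overlap. Aass, of lysine breakdown, (Log2FC -1.26 ± 0.23, FDR 0.00032), Etnppl (Log2FC -1.35 ± 0.41, FDR 0.0168) and Phgdh, of serine synthesis, (Log2FC -0.73 ± 0.15, FDR 0.000888) were also decreased.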
